A study of Mus musculus with 8 samples.

Results

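The genes described are 10 regulators and effectors of the adipocyte and of its response to insulin, read in whole back skin of mice. They were chosen by name, and all 10 were found by symbol among the 49671 genes of the count table: the transcription factor genes Pparg and Cebpa, the insulin signalling genes Insr, Irs1 and Irs2, the glucose transporter gene Slc2a4, and the fat metabolism genes Pck1, Fabp4, Cd36 and Lpl. Skin came from mice of 8 weeks whose label gives the Flg genotype as ko/ko (4 libraries, called knockout here) or wt/wt (4 libraries, called wild type). Flg encodes profilaggrin, the precursor of an epidermal barrier protein, and its loss is the one difference the labels name. Strain, sex and the cells in which the allele was inactivated are not given in the labels used here, and no label states that the libraries are from separate mice, so p-values measure the spread between these samples. The series asks how Flg deficiency changes expression in the skin as a whole.

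White adipocytes of the skin lie beneath the dermis, where they store triglyceride and surround the hair follicles. Their identity is set by PPARγ (the product of Pparg) and C/EBPα (Cebpa), which bind DNA and switch on one another's genes and those of lipid storage. Insulin acts through its receptor (Insr) and the docking proteins IRS1 and IRS2, and draws the glucose transporter encoded by Slc2a4 to the cell surface. Lipoprotein lipase (Lpl) frees fatty acids from blood lipoproteins, CD36 takes them up, and FABP4 binds them in the cytosol. The enzyme encoded by Pck1 acts in glyceroneogenesis, the pathway that makes the glycerol backbone on which fatty acids are esterified. Several of these genes are not confined to fat: Cd36 and Fabp4 are also made by capillary endothelium and macrophages, Lpl and Slc2a4 by muscle, Cebpa by keratinocytes, and Pparg by sebocytes.

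RefSeq (build GRCm38.p6) gave promoter windows for 6 of the 10 genes. The 250 bases before the start are shown for the 2 transcription factor genes and the 2 insulin receptor substrate genes. Each pair carries a shared role, and the log2 fold changes within it were unequal. Whether they differ within a pair was not tested. Capitals mark the motifs searched on both strands: AGGTCA (the half-site of PPAR and other nuclear receptors), a pair of these half-sites 1 base apart, TTGCNNAA (a core bound by C/EBP proteins), GTAAACA (a FOXO and forkhead core), CACGTG (an E-box), TATAAA and GGGCGG. Pparg has 3 windows, at separate starts, whose transcripts the count table sums; the third is printed (chr6:115421816-115422065, plus strand). Cebpa lies at chr7:35119043-35119292 (plus strand), Irs1 at chr1:82291440-82291689 and Irs2 at chr8:11008930-11009179 (both minus strand, printed 5′ to 3′ along the gene).
Pparg, start 3: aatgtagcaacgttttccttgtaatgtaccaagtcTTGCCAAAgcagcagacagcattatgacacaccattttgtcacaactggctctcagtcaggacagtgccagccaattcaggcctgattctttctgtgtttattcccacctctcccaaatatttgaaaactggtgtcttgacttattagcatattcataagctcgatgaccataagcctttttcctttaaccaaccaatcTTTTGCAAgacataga
Cebpa: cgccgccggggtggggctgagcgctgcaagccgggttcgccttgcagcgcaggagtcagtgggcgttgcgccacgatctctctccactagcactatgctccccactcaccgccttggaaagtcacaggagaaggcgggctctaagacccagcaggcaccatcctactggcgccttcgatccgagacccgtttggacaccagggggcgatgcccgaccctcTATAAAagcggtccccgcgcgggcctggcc
Irs1: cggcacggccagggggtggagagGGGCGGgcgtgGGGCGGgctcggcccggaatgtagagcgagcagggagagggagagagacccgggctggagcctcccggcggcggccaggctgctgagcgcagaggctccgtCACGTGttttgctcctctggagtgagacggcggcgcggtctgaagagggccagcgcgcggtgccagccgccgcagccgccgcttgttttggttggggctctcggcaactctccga
Irs2: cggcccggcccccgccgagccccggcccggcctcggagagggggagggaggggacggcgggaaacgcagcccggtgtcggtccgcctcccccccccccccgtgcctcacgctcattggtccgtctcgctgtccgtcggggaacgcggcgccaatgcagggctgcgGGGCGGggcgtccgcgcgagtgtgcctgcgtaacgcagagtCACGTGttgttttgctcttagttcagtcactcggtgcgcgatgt

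The third Pparg window held TTGCNNAA at 2 places, 215 and 16 bases before the start, a motif found in 10.8% of all 32851 promoter windows. The GC content of its 300 bases was 40.3%, against 80.3% and 62.7% in the first and second Pparg windows. GC content was 67.3% for Cebpa, 71.3% for Irs1 and 72% for Irs2, with a median of 52.7% over all windows. Cebpa had TATAAA 30 bases before its start (13.6% of windows hold that motif). The second Pparg window had it on the opposite strand, 29 bases before its start. Irs1 and Irs2 shared a CACGTG, 115 and 44 bases before their starts (7.15% of windows), and a GGGCGG (35.7% of windows). AGGTCA (16.3% of windows) lay 28 bases before the first Pparg start, 9 before the second and 228 before the start of Cd36, and the pair of half-sites (0.0396% of windows) was in none of the members' 8 windows. These are matches of letters and say nothing of binding in skin.

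Library totals ran between 18483242 and 38545957 counts, and the members had between 531 and 50673 counts in a library. Flg itself stood at 24.5 ± 1.97 CPM (counts scaled to the size of the library) in knockout skin and 59.0 ± 9.77 CPM in wild-type skin (SD, n = 4 each), and its log2 fold change was -1.27 ± 0.12 (SE; edgeR adjusted p = 0.00326), so reads of the gene remained in libraries labelled ko/ko. White adipocyte markers differed between libraries: the mean log2 CPM of 12 of them was between 7.24 and 7.90 in knockout, and 6.461, 5.997, 7.505 and 6.121 in wild-type replicates 1 to 4. Wild-type replicate 3 therefore stood with the knockout libraries in its fat markers, and calls of the members and of the related gene lists are also given without it where they change. That library was picked with its values in view. It was the highest wild-type library for 9 of the 10 members, so leaving it out raises their log2 fold changes by construction. Calls made without it are therefore no separate support for a difference. In bulk skin, more fat cells and more RNA of a gene in each fat cell cannot be told apart.

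None of the 10 members passed the edgeR test at an adjusted p under 0.05, against 0.712% of 19099 tested genes called higher and 0.702% called lower in knockout. The log2 fold change (knockout over wild type) was above 0 for 9 of the 10, where 46.7% of all tested genes lay above 0, and its median over the members was 0.32, against -0.02 over all tested genes. At an unadjusted p under 0.05 there were 6 higher members and 0 lower ones, where 8.64% of all tested genes were higher and 10.9% lower at that level. For 2 members, Irs1 and Slc2a4, every knockout library lay above every wild-type library, which held for 5.57% of tested genes.

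**Figure D1:**
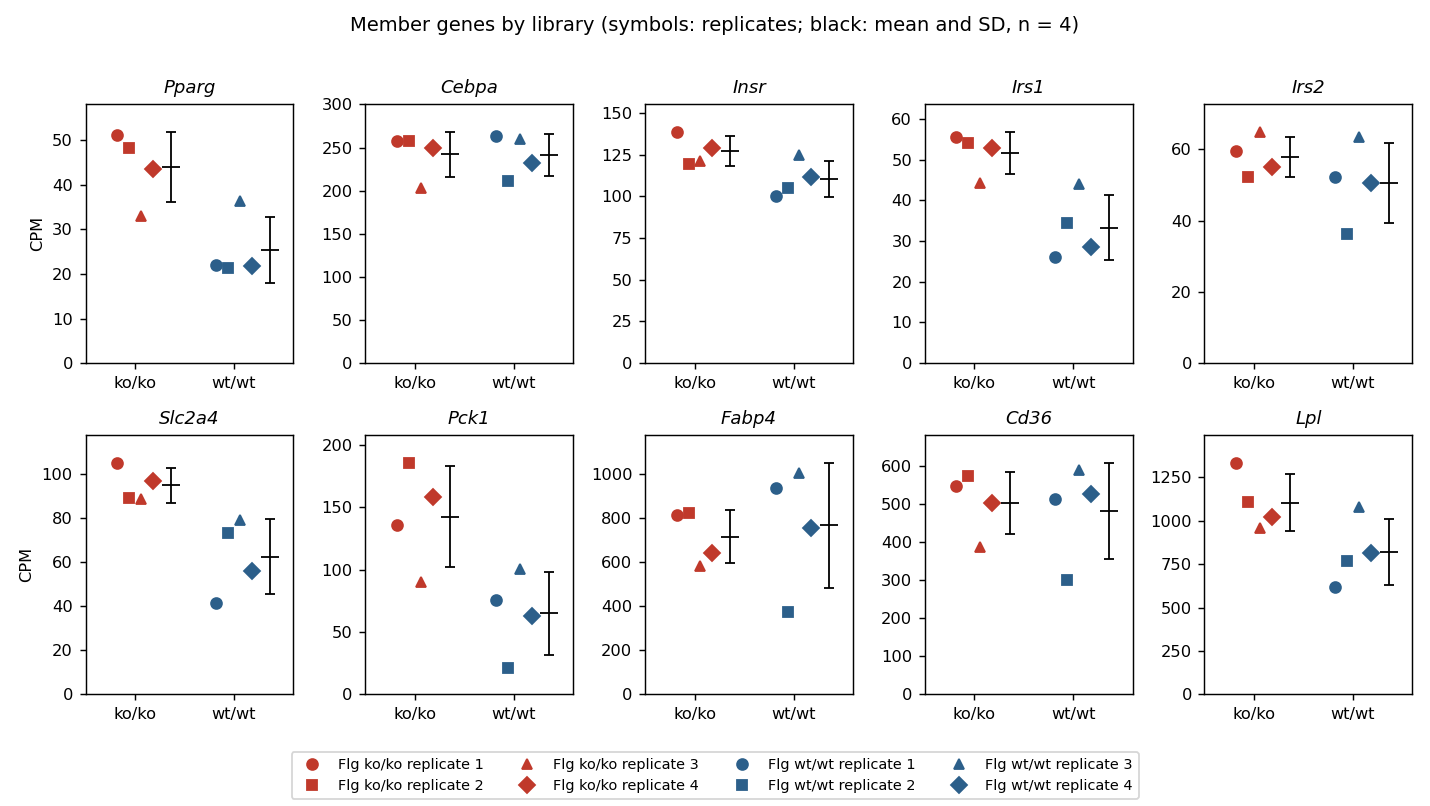
CPM of each member gene (vertical axes, from 0) in the 4 Flg ko/ko and 4 Flg wt/wt libraries, with 1 symbol per replicate and the mean and SD in black. Irs1 and Slc2a4 show no overlap between genotypes, wild-type replicate 3 is the highest wild-type library for 9 of the 10 genes, and Fabp4 and Cd36 spread more widely in wild type than in knockout.

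Of the 2 transcription factor genes, Pparg stood apart from Cebpa. Pparg (ENSMUSG00000000440, chromosome 6, positions 115360951 to 115490399, plus strand, mm10) was at 51.1, 48.3, 33.1 and 43.6 CPM in knockout replicates 1 to 4 and at 21.9, 21.4, 36.5 and 21.8 CPM in wild-type replicates 1 to 4. Wild-type replicates 1, 2 and 4 lay close together, and wild-type replicate 3 alone reached into the knockout range, above knockout replicate 3. Its log2 fold change was 0.80 ± 0.19 (SE; 95% interval 0.37 to 1.23; edgeR adjusted p = 0.0722). Without wild-type replicate 3 it was 1.03 ± 0.14 and passed (adjusted p = 0.00642).

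Cebpa (chromosome 7, positions 35119293 to 35121928, plus strand) was at 258, 258, 203 and 249 CPM in knockout and at 263, 211, 259 and 232 CPM in wild type. The groups overlapped throughout, with the highest library in wild type and the lowest in knockout. Its log2 fold change was 0.01 ± 0.11 (SE; adjusted p = 0.985), with a 95% interval of -0.23 to 0.24. The ratio of Pparg to Cebpa CPM was 0.198, 0.187, 0.163 and 0.175 in knockout and 0.0833, 0.101, 0.141 and 0.0942 in wild type, so that every knockout library had more Pparg reads for each Cebpa read than every wild-type library. This ratio was chosen with the values in view and was not tested.

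In insulin signalling, the substrate gene Irs1 and the transporter gene Slc2a4 had the 2 groups apart, while the receptor gene Insr and the second substrate gene Irs2 did not. Irs1 (chromosome 1, positions 82233101 to 82291416, minus strand) was at 55.7, 54.1, 44.2 and 52.9 CPM in knockout and at 26.2, 34.4, 44.0 and 28.6 CPM in wild type. Knockout replicate 3 and wild-type replicate 3 nearly met, at 44.15 and 44.02 CPM, and the other libraries were well separated. The log2 fold change was 0.64 ± 0.15 (SE; 95% interval 0.30 to 0.97; edgeR adjusted p = 0.0671), and 0.81 ± 0.12 without wild-type replicate 3 (adjusted p = 0.00913).

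Slc2a4 (chromosome 11, positions 69942539 to 69948188, minus strand), which encodes the insulin-responsive glucose transporter of fat and muscle, was at 105, 89.3, 88.7 and 96.8 CPM in knockout and at 41.7, 73.6, 79.1 and 56.2 CPM in wild type. Knockout libraries lay within a narrow band and wild-type libraries spread more widely, with replicate 1 the lowest. For Slc2a4 the log2 fold change was 0.60 ± 0.17 (SE; 95% interval 0.22 to 0.99; edgeR adjusted p = 0.107), and 0.74 ± 0.17 without wild-type replicate 3 (adjusted p = 0.0396). The summed level of 10 skeletal muscle markers, of the other tissue named for this transporter, was between 18350 and 22790 CPM in knockout and between 14990 and 20380 CPM in wild type, with 0 of 10 markers called. Of these markers 8 lay above 0 and 2 below, where 46.7% of all tested genes lay above 0, and their median log2 fold change was 0.08. The sum was lowest in wild-type replicate 1, as Slc2a4 was. In wild-type replicates 2, 3 and 4 the sum was 18830, 18150 and 20380 CPM. Of these libraries, replicate 4 had the highest sum and the lowest Slc2a4, and replicate 3 the reverse. Among knockout libraries, replicate 3 had the highest sum and the lowest Slc2a4. The part of muscle in the Slc2a4 difference was not tested.

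Insr (chromosome 8, positions 3122061 to 3279617, minus strand) was at 139, 119, 121 and 129 CPM in knockout and at 99.9, 105, 125 and 112 CPM in wild type, with wild-type replicate 3 inside the knockout range. Its log2 fold change was 0.20 ± 0.09 (SE; edgeR adjusted p = 0.241), and the upper end of the 95% interval was 0.40. Irs2 (chromosome 8, positions 10984681 to 11008458, minus strand) was at 59.6, 52.2, 65.0 and 55.0 CPM in knockout and at 52.3, 36.2, 63.4 and 50.4 CPM in wild type. These libraries overlapped, and the lowest value was that of wild-type replicate 2. The log2 fold change of Irs2 was 0.20 ± 0.15 (SE; adjusted p = 0.493), with a 95% interval of -0.13 to 0.52 that includes 0. The ratio of Irs1 to Irs2 CPM ran between 0.680 and 1.04 in knockout and between 0.5003 and 0.950 in wild type, so the 2 substrate genes were not set apart in every library. For Slc2a4 over Insr the ratio was between 0.733 and 0.758 in knockout and between 0.417 and 0.700 in wild type, with no overlap and not tested.

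Among the fat metabolism genes, Pck1 and Lpl had positive log2 fold changes without passing, and Fabp4 and Cd36 overlapped fully. Pck1 (chromosome 2, positions 173153048 to 173159273, plus strand) encodes the cytosolic phosphoenolpyruvate carboxykinase of glyceroneogenesis. It was at 136, 186, 90.3 and 159 CPM in knockout and at 75.7, 21.0, 100 and 63.2 CPM in wild type. It varied most of the 10 genes: wild-type replicate 2 was far below the others. The log2 fold change was the largest of the members, 1.13 ± 0.43 (SE; edgeR adjusted p = 0.206), with a 95% interval from 0.15 to 2.11. Wild-type replicate 3 lay above knockout replicate 3. It did not pass without wild-type replicate 3 either (1.43 ± 0.42, adjusted p = 0.0806).

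Lpl (chromosome 8, positions 68880491 to 68907448, plus strand) was at 1333, 1107, 959 and 1023 CPM in knockout and at 618, 770, 1079 and 816 CPM in wild type. Wild-type replicate 3 lay above 2 knockout libraries, and the other wild-type libraries lay below all of them. For Lpl the log2 fold change was 0.43 ± 0.17 (SE; edgeR adjusted p = 0.200), and 0.60 ± 0.14 without wild-type replicate 3 (adjusted p = 0.0400).

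Fabp4 (chromosome 3, positions 10204088 to 10208576, minus strand) was at 812, 823, 584 and 642 CPM in knockout and at 933, 373, 1003 and 755 CPM in wild type. The highest and the lowest library were both wild type. Its log2 fold change was -0.10 ± 0.27 (SE; adjusted p = 0.866), with a 95% interval from -0.69 to 0.49. Cd36 (chromosome 5, positions 17781690 to 17888801, minus strand) was at 548, 573, 389 and 502 CPM in knockout and at 513, 300, 590 and 526 CPM in wild type, and its log2 fold change was 0.06 ± 0.20 (SE; adjusted p = 0.890; 95% interval -0.37 to 0.50). As with Fabp4, wild-type replicates 3 and 2 held the extremes of Cd36. The intervals of both genes are wide enough to include differences of the size seen for Lpl.

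**Figure D2:**
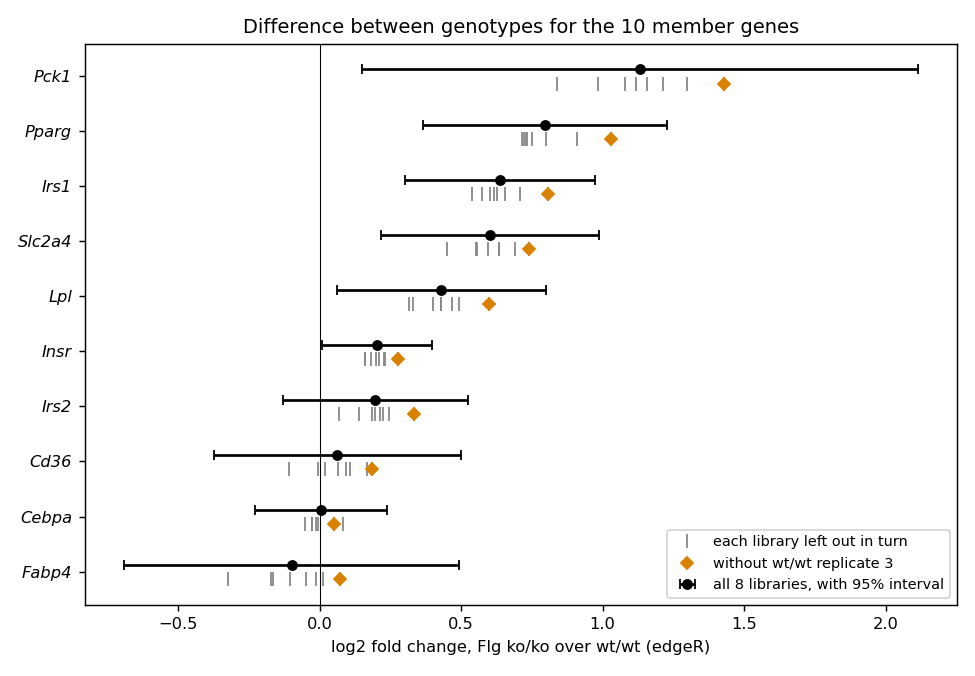
Log2 fold change of each member gene, Flg ko/ko over wt/wt (horizontal axis, edgeR), with the 95% interval from all 8 libraries in black, the values with each library left out as ticks and those without wild-type replicate 3 as diamonds. Pck1, Pparg, Irs1, Slc2a4, Lpl, Insr and Irs2 keep a positive value with each library left out, while Cebpa, Cd36 and Fabp4 take both signs.

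Calls depended on the fit. Without wild-type replicate 3, 4 members passed as higher (Pparg, Irs1, Slc2a4 and Lpl), where 3.49% of all tested genes were called higher. For each of these 4 genes the library left out was the highest wild-type one. With DESeq2 the count was 3 (Pparg, Irs1 and Slc2a4, against 3.16% of genes), with limma voom and quality weights per library it was 4 (the same 4 as without wild-type replicate 3, against 6.15%), and with no filter on low counts it was 1 (Irs1, against 0.645%). Leaving out any other single library left 0 called.

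Given per exon length of the gene, as TPM, in which each library sums to the same total, the members spanned a wide range. Their order was close to the same in both genotypes. The length used is that of all annotated exons of a gene and not of a single transcript, so levels of different genes compare only roughly. Fabp4 led at 513 ± 88.9 TPM in knockout and 528 ± 204 TPM in wild type (SD, n = 4 each), and Irs1 was last at 18.2 ± 2.16 TPM in knockout and 11.4 ± 3.28 TPM in wild type. Irs1 shares 2822 of its 9144 exon bases with an antisense gene, and the strand setting of the counting is not given. Its level, and its gap to Irs2, are therefore less secure. In knockout the order after Fabp4 was Cd36, Lpl, Cebpa, Pck1, Slc2a4, Pparg, Insr, Irs2 and Irs1. Neighbours whose libraries did not overlap there were Cebpa and Pck1, Slc2a4 and Pparg, Pparg and Insr, and Irs2 and Irs1. In wild type Cebpa (283 ± 34.3 TPM) stood before Lpl (244 ± 67.8 TPM), though their libraries overlapped, and the gaps that no library bridged were those between Lpl and Pck1 and between Irs2 and Irs1. Pparg, at 48.1 ± 9.18 TPM in knockout and 26.8 ± 9.19 TPM in wild type, was thus set apart from Insr in knockout but overlapped it in wild type.

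The members differed in their profiles over the 8 libraries. Measured as the root mean square difference of log2 CPM, each gene centred on its own mean, the closest pairs of members were Irs1 and Slc2a4 (0.13), Irs1 and Lpl (0.16), Pparg and Irs1 (0.17) and Fabp4 and Cd36 (0.17). Pck1 was the member farthest from the others, at 0.58 from Pparg, its nearest, and 0.85 from Cebpa. Knockout replicate 3 was the lowest knockout library for 8 of the 10 genes, and wild-type replicate 2 the lowest wild-type library for 6. The same measure over 15139 other genes gave as nearest neighbours Glis3 for Pparg (0.09), Rexo5 for Cebpa (0.05), Synrg for Insr (0.03), Vcl for Irs1 (0.08), Sulf2 for Irs2 (0.04), Gpam for Slc2a4 (0.08), Timp4 for Pck1 (0.34), Arxes2 for Fabp4 (0.17), Acaa1b for Cd36 (0.13) and Art3 for Lpl (0.06). Among those, Gpam encodes the enzyme that begins triglyceride synthesis, and Vcl encodes the adhesion protein vinculin. Of the next nearest genes, the third for Pparg was G6pd2, which passed the test as higher (0.98 ± 0.19, SE; adjusted p = 0.0440), and the third for Pck1 was the transporter gene Slc16a12 (1.28 ± 0.26; adjusted p = 0.0481).

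**Figure D3:**
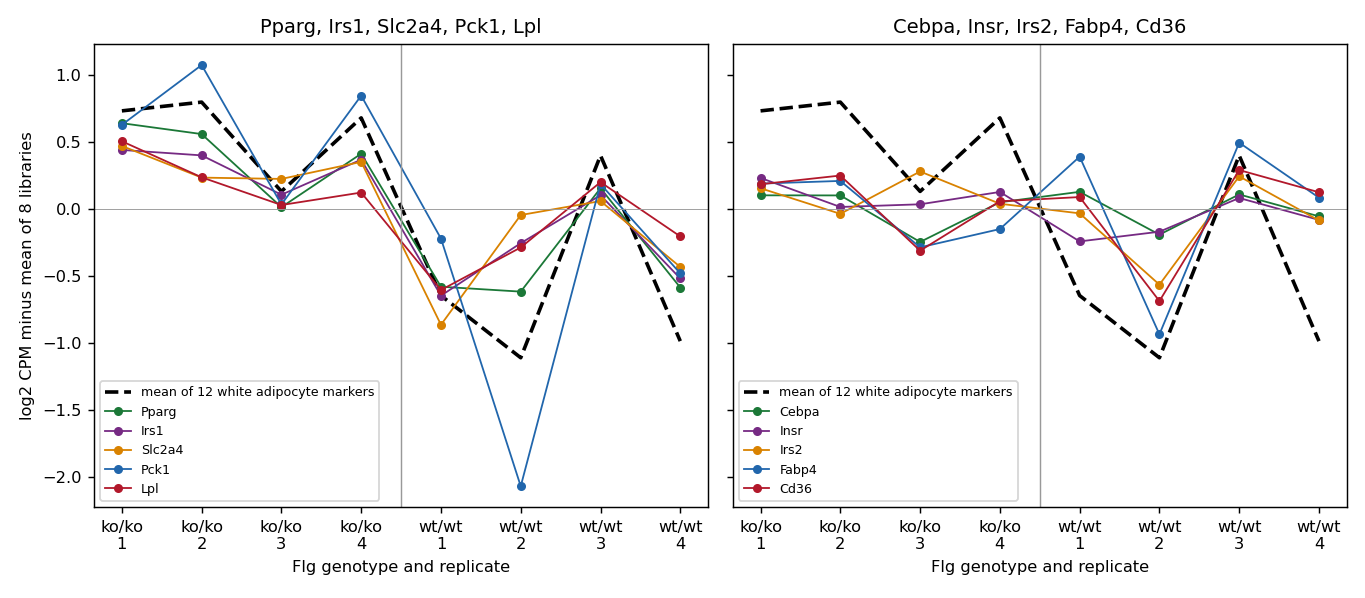
Log2 CPM of each member minus its mean over the 8 libraries (vertical axis), by library, for the 5 members with the largest log2 fold changes (left) and the other 5 (right), with the mean of 12 white adipocyte markers dashed. The dashed line is above 0 in the 4 knockout libraries and in wild-type replicate 3 and below 0 in the other wild-type libraries, and Pck1 has the widest swings of the members.

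Set against the white adipocyte markers library by library, 3 members had all knockout libraries below all wild-type ones, as did 20.8% of the 19099 tested genes on the same scale. The median difference of all tested genes was -1.18, since the marker mean was higher in knockout, and the 3 members lay near it, at -1.17 for Cebpa, -1.19 for Fabp4 and -1.08 for Cd36. The log2 CPM of Fabp4 minus the marker mean was 1.83, 1.78, 1.95 and 1.54 in knockout and 3.41, 2.55, 2.47 and 3.44 in wild type. For Cd36 it was 1.26, 1.26, 1.37 and 1.19 in knockout and 2.54, 2.23, 1.70 and 2.92 in wild type, and for Cebpa it was 0.18, 0.11, 0.43 and 0.18 in knockout and 1.58, 1.72, 0.51 and 1.74 in wild type. The other 7 members overlapped between genotypes on this scale. Of these Pck1 came closest to 0 difference (0.12 higher in knockout, with -0.58 ± 0.19 in knockout and -0.70 ± 0.68 in wild type; SD, n = 4 each), and Pparg followed at -0.36. These differences are descriptions with no test.

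**Figure D4:**
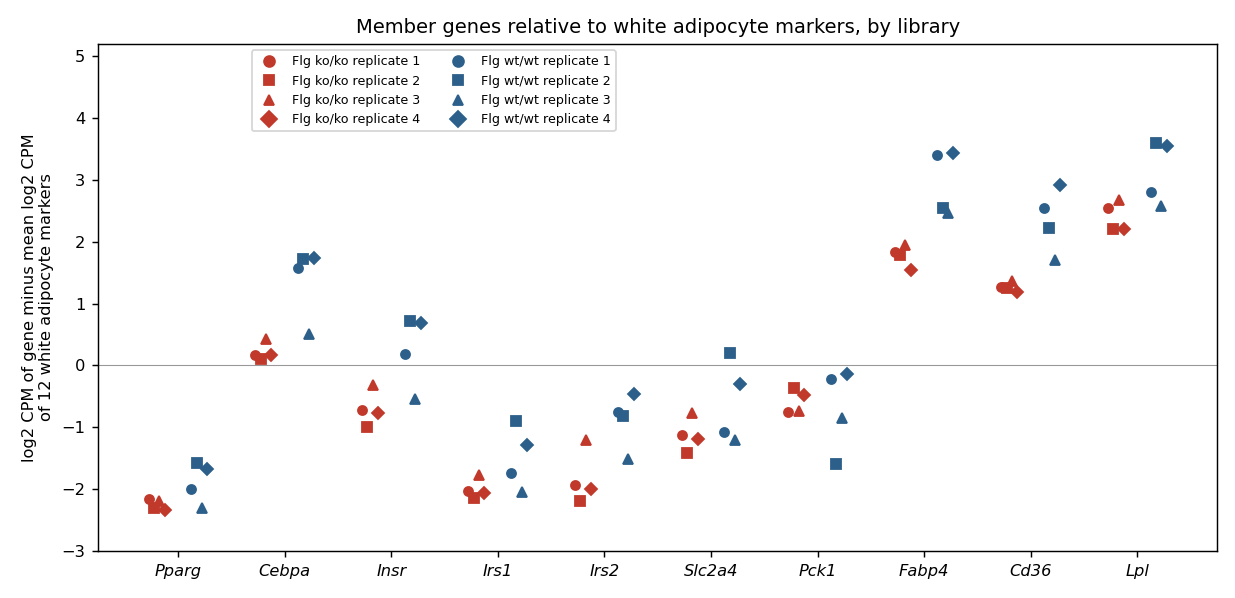
Log2 CPM of each member minus the mean log2 CPM of 12 white adipocyte markers (vertical axis) for each library, Flg ko/ko left of Flg wt/wt. For Cebpa, Fabp4 and Cd36 all knockout libraries lie below all wild-type ones, as for 20.8% of all tested genes, and the other 7 genes overlap.

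With the marker mean as a covariate in the edgeR fit, the members' log2 fold changes ran from -0.79 for Fabp4 to 0.37 for Slc2a4, and their adjusted p from 0.416 to 0.993. Over all genes 0 were called in that fit in either direction, with 2251 at an unadjusted p under 0.05. Pparg was then at 0.13 ± 0.15, Irs1 at 0.23 ± 0.18, Pck1 at 0.02 ± 0.51 and Lpl at 0.03 ± 0.22 (SE). The marker mean and the genotype move together over these libraries.

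Cell types other than fat that make these genes were read through marker lists. The summed level of 10 capillary endothelial markers was between 404 and 475 CPM in knockout and between 364 and 565 CPM in wild type. None of these markers passed, 8 of 10 lay below 0, and their median log2 fold change was -0.24. Wild-type replicate 2, lowest in Fabp4 and Cd36, was also the lowest in this sum, and the lowest in the white adipocyte marker mean (5.997). Within knockout the order differed: replicate 2 had the lowest endothelial sum (404 CPM) and the highest Fabp4 and Cd36. Knockout replicate 3 had the highest endothelial sum (475 CPM) and the lowest Fabp4 and Cd36 of its group. For 10 macrophage markers the sum was between 2297 and 3373 CPM in knockout and between 2301 and 3059 CPM in wild type. Of these markers 6 lay above 0 and 4 below, with 1 higher and 1 lower at an unadjusted p under 0.05. The mannose receptor gene Mrc1 alone was called higher, against 0.712% of all tested genes. For 10 sebocyte markers the sum was between 1101 and 1568 CPM in knockout and between 1042 and 2092 CPM in wild type. Basal keratinocyte markers summed to between 6762 and 7555 CPM in knockout and between 7762 and 8897 CPM in wild type, without overlap, though 0 of 7 passed. Sums of 7 suprabasal markers were between 6627 and 7957 CPM in knockout and between 7638 and 8046 CPM in wild type, and of 7 fibroblast markers between 25430 and 37090 CPM in knockout and between 23090 and 36960 CPM in wild type. White adipocyte markers summed to between 4979 and 6374 CPM in knockout and between 3307 and 6114 CPM in wild type. All 12 of them lay above 0 and 0 passed, with a median log2 fold change of 0.98. At an unadjusted p under 0.05, 9 were higher and 0 lower, against 8.64% and 10.9% of all tested genes. For 3 of the 12, every knockout library lay above every wild-type library, which held for 5.57% of tested genes. Of 6 brown adipocyte markers, Ucp1 was under 0.5 CPM in every library, and the sum was between 69.1 and 81.4 CPM in knockout and between 78.3 and 125 CPM in wild type. The part of these cells in the members' values was not tested.

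Related genes of the same pathways were counted in lists, beside a median log2 fold change of -0.02 and called shares of 0.712% higher and 0.702% lower over all genes. Over all genes 46.7% lay above 0, and 8.64% were higher and 10.9% lower at an unadjusted p under 0.05. Without wild-type replicate 3 the called share was 3.49% higher. In the list of other adipogenic transcription factors and cofactors, 4 of 34 tested genes were called higher and 0 lower, and the median log2 fold change was 0.11. Of the 34 genes 24 lay above 0 and 10 below, with 9 higher and 2 lower at an unadjusted p under 0.05. Without wild-type replicate 3, 8 passed as higher. The 4 were Stat5a, a signal transducer of growth hormone and prolactin, at 0.52 ± 0.10 (SE; adjusted p = 0.0416), the nuclear receptor corepressor gene Nrip1 at 0.40 ± 0.08 (0.0439), the preadipocyte factor gene Zfp423 at 0.59 ± 0.12 (0.0483), and Mlxipl, whose product ChREBP responds to glucose, at 0.65 ± 0.14 (0.0483). Zfp423 was at 13.7, 14.02, 14.1 and 14.1 CPM in knockout and at 10.4, 7.20, 9.82 and 9.62 CPM in wild type, with the knockout libraries close together.

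In the insulin cascade list 0 of 49 tested genes passed, with a median of 0.06 and 9 higher and 2 lower at an unadjusted p under 0.05. There were 8 called higher without wild-type replicate 3. Closest were Pik3r1, the regulatory subunit of phosphoinositide 3-kinase, at 0.50 ± 0.11 (SE; adjusted p = 0.0562), the phosphodiesterase gene Pde3b, through which insulin restrains lipolysis, at 0.54 ± 0.14 (0.0854), and the adaptor gene Sh2b2 at 0.88 ± 0.25 (0.103). Pik3r1 had no overlap between genotypes. All knockout libraries lay above all wild-type ones for 3 of the 49 tested genes of this list, and for 5.57% of all tested genes. In the list of fatty acid uptake and esterification 1 of 19 tested genes was called higher and 0 lower (median 0.08). The called gene was the caveolin gene Cav1, at 620 ± 41.9 CPM in knockout and 448 ± 31.6 CPM in wild type (SD, n = 4 each). Cav1 was 0.47 ± 0.09 higher on the log2 scale (SE, edgeR adjusted p = 0.0414). At an unadjusted p under 0.05, 6 genes of this list were higher and 3 lower, and leaving out wild-type replicate 3 gave 8 called higher and 0 lower. Leaving out wild-type replicate 2 gave 2 higher and 4 lower, where 188 of all 19376 tested genes were called higher and 316 lower.

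For glyceroneogenesis and pyruvate handling, the pathway of Pck1, 0 of 18 passed, with a median of 0.05 and 4 higher and 1 lower at an unadjusted p under 0.05, and 3 passed as higher without wild-type replicate 3. Pcx, which encodes the pyruvate carboxylase that supplies oxaloacetate, was at 239 ± 56.3 CPM in knockout and 77.4 ± 42.3 CPM in wild type (SD, n = 4 each), with no overlap, at 1.63 ± 0.34 (SE; adjusted p = 0.0562). Pcx was the 1 gene of the 18 with all knockout libraries above all wild-type ones, which held for 5.57% of all tested genes. Slc25a10 stood at 0.88 ± 0.25 and Gpd2 at 0.32 ± 0.11. In the list of glucose uptake and glycogen genes 0 of 19 passed, with 16 of 19 above 0, a median of 0.27 and 8 higher and 0 lower at an unadjusted p under 0.05, and 5 passed as higher without wild-type replicate 3. The hexokinase gene Hk2 was at 0.62 ± 0.15 (SE; adjusted p = 0.0651) and the glycogen branching enzyme gene Gbe1 at 0.73 ± 0.19. Among 24 PPARγ targets and genes that rise with them in fat, 1 was called higher and 0 lower. The median was 0.47, with 13 higher and 1 lower at an unadjusted p under 0.05. Without wild-type replicate 3, 13 passed as higher. Without wild-type replicate 2, 1 was called higher and 2 lower, against 188 higher and 316 lower of all 19376 tested genes. Of these 24 genes, 8 are also among the 12 fat markers. The called gene was the transketolase gene Tkt, at 193 ± 19.3 CPM in knockout and 124 ± 20.2 CPM in wild type (SD, n = 4 each), 0.64 ± 0.12 higher on the log2 scale (SE; adjusted p = 0.0406).

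All 6 of these called genes missed the threshold without knockout replicate 1, 2 or 4 or wild-type replicate 1 or 4, where their adjusted p lay between 0.0740 and 0.156. Without knockout replicate 3, 5 of the 6 missed it (0.0531 to 0.0930, Tkt passing at 0.0425), and without wild-type replicate 2 Mlxipl alone did (0.0612). All 6 passed without wild-type replicate 3 (0.00642 to 0.0258).

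**Figure D5:**
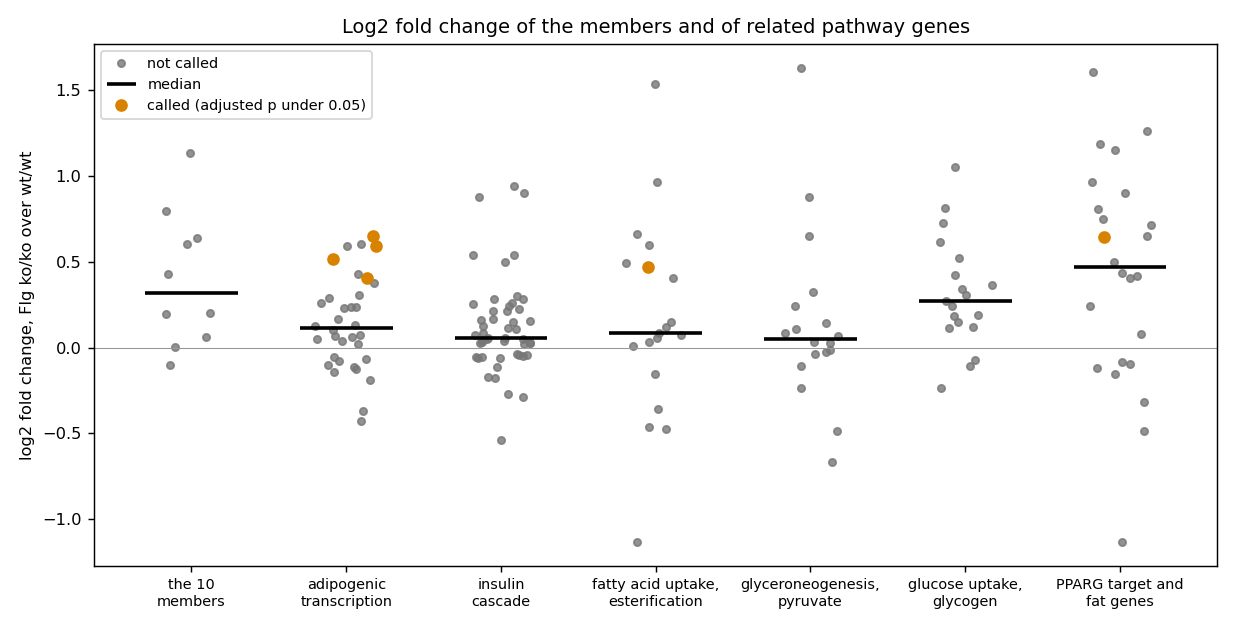
Log2 fold change, Flg ko/ko over wt/wt (vertical axis), of the 10 members and of each tested gene in 6 related lists, with called genes in orange and medians as bars. 6 genes are called across the lists, all above 0, and the members' median of 0.32 lies between those of the glucose and the PPARγ target lists.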

How the data were processed

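Reads of 8 libraries (4 Flg ko/ko, 4 Flg wt/wt) were aligned to mm10 by GSNAP, and featureCounts 1.6.2 counted them over genes, per the submitters' processing notes. The deposited values are raw counts per gene, not normalized, and the exon length used for TPM is in the deposited table. The strand setting is not given in the sources used here, and the series' design text names a SMART protocol where the sample labels name a directional kit. Exons of Irs1, Cebpa and Irs2 overlap antisense genes by 2822, 51 and 162 bases, with 0, 138 and 47 reads over all libraries. Of 49763 features, 92 spike-ins were left out; 49326 of 49671 genes matched a symbol in the GENCODE table of the same build. Library totals were between 18483242 and 38545957 counts. Replicates of a genotype differed by more than counting noise in each pair (lowest chi-square over degrees of freedom 5.94).

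Genotypes were compared with edgeR 4.0.16 (R 4.3.3): filterByExpr (19099 genes), TMM factors, the robust quasi-likelihood test and Benjamini-Hochberg adjustment over all tested genes, called at 0.05. SE was derived from the F statistic. CPM uses TMM-scaled library sizes, and log2 CPM a prior count of 2. Alternatives were DESeq2 size factors, DESeq2 1.42.0, limma 3.58.1 voom with quality weights, no filter, no robust estimation, a covariate of 12 white adipocyte markers, and each library left out. On simulated knockout over wild-type counts of 18891 genes, 58.2% of genes changed 1.5-fold, 80.6% of those changed 2-fold and 97% of those changed 4-fold were recovered. The simulated counts were drawn for each gene on its own. They hold no difference between libraries that many genes share, such as that in fat markers, so these rates need not hold for the members. Members, gene lists and tests were chosen with earlier results of these data known. Genes named beside the members are the called genes of each list (up to 6) or else the 3 with the smallest p, and the nearest genes by root mean square difference among genes whose log2 CPM averaged 1 or more (up to 3 for each member). A gene that this rule names is not reported here. Replicate numbers follow sample order and pair nothing.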

Additional observations from a re-analysis of the deposited data

Results flagged for a closer look

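For 2 of the 20 groups of 4 libraries examined (10 members in 2 genotypes), 1 library lay far from the rest by Dixon's criterion, and chance gives about 1 in 20 such groups. Pparg was at 36.5 CPM in wild-type replicate 3, while the other wild-type libraries were at 21.9, 21.4 and 21.8 CPM. Cebpa was at 203 CPM in knockout replicate 3, while the other knockout libraries were at 258, 258 and 249 CPM. The same libraries held the extremes of the white adipocyte markers: their mean log2 CPM was 7.24 in knockout replicate 3, the lowest knockout library, and 7.505 in wild-type replicate 3, the highest wild-type one. The part of fat amount in these values was not tested.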

How the results depend on the processing

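Over all genes, 136 were called higher and 134 lower, against 591 and 586 with DESeq2, 1174 and 1361 with limma voom, 234 and 268 with no filter, 0 and 0 with the marker covariate, and from 9 and 2 (without knockout replicate 2) to 679 and 646 (without wild-type replicate 3) with single libraries left out. Calls of the members ranged from 0 to 4 higher and from 0 to 0 lower when single libraries were left out, and were 3 higher with DESeq2, 4 with limma voom and 1 with no filter. DESeq2 size factors in edgeR and a fit without robust estimation left 0 members called. Called higher with DESeq2 were 8 adipogenic, 4 insulin cascade, 4 fatty acid, 2 glyceroneogenesis, 3 glucose and 8 PPARγ target genes, and with limma voom 9, 9, 5, 4, 6 and 12 in the same order, with 2, 1, 2 and 1 called lower in the adipogenic, insulin cascade, fatty acid and PPARγ target lists. With no filter, 2 insulin cascade and 1 glucose gene were called higher, and without robust estimation 1 glyceroneogenesis and 3 PPARγ target genes. With the marker covariate the adipogenic, fatty acid and PPARγ target lists had 0, though Nrip1 (0.41) was as large as without it, and Flg itself, at -1.29, also lost its call (adjusted p = 0.0769). With single libraries left out, counts higher ran from 0 to 8 in the adipogenic, insulin cascade and fatty acid lists, 0 to 3 in glyceroneogenesis, 0 to 5 in glucose and 0 to 13 in PPARγ targets, and counts lower from 0 to 4 in the fatty acid and 0 to 2 in the PPARγ target list. The highest counts higher came without wild-type replicate 3, and the highest counts lower without wild-type replicate 2, where 316 of all 19376 tested genes were called lower. The cause was not tested. With the covariate Cebpa (-0.26), Irs2 (-0.083) and Cd36 (-0.47) turned below 0. With single libraries left out, Cebpa ran from -0.053 to 0.082, Fabp4 from -0.33 to 0.07 and Cd36 from -0.11 to 0.18, while the other 7 members stayed above 0. Setting the members against the median of the markers instead of their mean, an alternative chosen after seeing the data, moved no difference by more than the spread between replicates.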

Other observations

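In the list of fatty acid uptake and esterification, 5 of 19 tested genes had a log2 fold change below 0, and they are described after their values were seen. None passed, and 3 were lower at an unadjusted p under 0.05. Angptl4, which encodes an inhibitor of lipoprotein lipase and is a PPAR target, was at 46.8 ± 14.2 CPM in knockout and 102 ± 42.6 CPM in wild type (SD, n = 4 each), a difference of -1.13 ± 0.37 on the log2 scale (SE; edgeR adjusted p = 0.156). Fabp5, the fatty acid binding protein of the epidermis, stood at -0.46 ± 0.14 (adjusted p = 0.111) and the fatty acid transport protein gene Slc27a4 at -0.36 ± 0.12 (adjusted p = 0.159). Gpihbp1, which anchors lipoprotein lipase on capillaries, was at -0.48 ± 0.27 (adjusted p = 0.363) and Slc27a1 at -0.15 ± 0.27 (adjusted p = 0.789). In the glyceroneogenesis and pyruvate list, Pdk4, the kinase that turns off pyruvate dehydrogenase, was at 159 ± 41.5 CPM in knockout and 252 ± 75.1 CPM in wild type, at -0.66 ± 0.25 (adjusted p = 0.192). Angptl8, a feeding-induced regulator of lipoprotein lipase, had the largest positive log2 fold change of the fatty acid list, at 1.53 ± 0.56 (adjusted p = 0.178), from levels between 0.333 and 1.76 CPM in knockout and between 0.158 and 0.927 CPM in wild type.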
